A study of Homo sapiens with 6 samples.

Results

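The probes described here are the oligonucleotides of a gene expression array that carry a short match to the seed of siDLEU1-2, the small interfering RNA (siRNA) used to knock down the long noncoding RNA DLEU1. A probe was a member when its sequence held GCACTTA, the heptamer complementary to positions 2 to 8 of the antisense strand of siDLEU1-2, counted from the 5′ end. The heptamer was found in 138 of the 50599 probes outside the controls (0.273%), each holding it 1 time. DLEU1 was left out, although its 1 probe does not hold the heptamer.

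The arrays compared HSC-3, KON and Ca9-22, established lines of oral squamous cell carcinoma (OSCC), after transfection with siDLEU1-2 or with a negative control siRNA (siCtrl). Both siRNAs were delivered with Lipofectamine RNAiMAX, RNA was taken after 72 h, and Cy3-labeled material from 100 ng of it was hybridized to 6 one-color Agilent arrays on 1 slide, with a single array for each line and siRNA. None of the arrays was made with siDLEU1-1, the other siRNA against DLEU1, so changes from the loss of DLEU1 and changes from siDLEU1-2 itself cannot be told apart here. The 3 lines were the only replicates, and the member probes share the same 6 arrays, so they are not replicates of one another. Of the marker genes of epithelium, 10 of 10 probes for 8 genes passed the filter on dim probes described below, and of the leukocyte, endothelial and fibroblast markers (PTPRC, PECAM1, DCN and COL1A1) 1 of 11 did, while 7 of these 11 were above background on no array. The epithelial probes had a median log2 fold change of -0.97, and limma called TP63 (-2.46), KRT6A (-1.33) and SFN (-0.81) lower and CDH1 (2.92) higher. The 1 that passed, of COL1A1, had a log2 fold change of 1.45 ± 0.57 (n = 3 lines, SD; limma adjusted p = 0.0423), and the part of these markers in the results was not tested. For DLEU1 itself the log2 fold change averaged -3.72 ± 0.34 (n = 3 lines, SD; limma adjusted p = 0.0227).

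An siRNA is loaded into an Argonaute protein, and the loaded strand finds its intended target by pairing along its whole length. The bases near the 5′ end of the strand, called the seed, can also pair with short matches in other transcripts, in the way that microRNAs find theirs, and such pairing can lower the level of those transcripts. A match to the seed followed by an A in the transcript, opposite the first base of the strand, is the form known in microRNA biology for the stronger effect.

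The strands of siDLEU1-2 and the antisense strand of siDLEU1-1 are given with positions 2 to 8 in capitals, since these positions define the members and the comparison probes.
siDLEU1-2 antisense: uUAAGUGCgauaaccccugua
siDLEU1-2 sense: cAGGGGUUaucgcacuuaagc
siDLEU1-1 antisense: aGCUAUAAgacgaccccucgg

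Of 2370 human mature microRNAs in the RefSeq table (GRCh38.p14), 0 had the same positions 2 to 8 as this antisense strand, and 23 held the shared hexamer AAGUGC within their own positions 2 to 8. In 8 of them, of the miR-17 family and its relatives, the hexamer lay at positions 3 to 8, as it does in the siRNA. In the other 15, of the miR-302, miR-372 and miR-519 to miR-520 groups, it lay at positions 2 to 7. Examples of each seed follow, with positions 2 to 8 in capitals.
hsa-miR-17-5p: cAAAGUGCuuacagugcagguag
hsa-miR-93-5p: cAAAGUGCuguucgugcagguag
hsa-miR-302a-3p: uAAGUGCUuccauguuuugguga
hsa-miR-372-3p: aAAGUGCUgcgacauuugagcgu
hsa-miR-519a-3p: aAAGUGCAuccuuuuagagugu

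The member probes were split by the base that follows the heptamer. In 43 probes this base was A, which gives the 8-mer GCACTTAA, in 90 it was another base (7-mer), and in 5 the heptamer ended the probe, so that the base was not in it. Probe sequences run in the direction of the transcript. The sites of member probes that fell, described in the following paragraphs, are written with the heptamer in capitals and up to 13 bases before it, which lie opposite positions 9 to 21 of the antisense strand. Sites near the start of a probe are cut short by it.
NSD2: gctgctctgtactGCACTTAg
ITGB4: cagcctttgttctGCACTTAa
SMYD2: cttcttGCACTTAa
ENST00000538113: ctggagcctctcaGCACTTAc
HADHB: tattaaatactttGCACTTAa
SPRYD3: gtgtttgattctaGCACTTAc
CCDC88A: tatggataaagttGCACTTAt
RAB8A: tacatcgataaatGCACTTAa
RABGAP1: tgtggttattcgaGCACTTAa
USB1: agtccaagtcaaaGCACTTAc
ACAD9: actagaagcagagGCACTTAa

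Pairing with the siRNA outside the heptamer was counted next. Over the 102 members whose bases opposite positions 9 to 21 all lay within the probe, the median site paired at 3 of these positions and no site at more than 8, and the run of pairs next to the seed was 2 bases at most. The RAB8A and AZGP1 sites paired at 7 of these positions, the highest count among the kept members, although the RAB8A probe was lower and the AZGP1 probe higher after siDLEU1-2, and the NSD2 and ITGB4 sites at 2.

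A probe was kept when each line had at least 1 array (of its 2) on which the scanner software marked it as well above background. This held for 19956 probes (39.4%) and for 57 of the 138 members (41.3%). Levels are log2 processed signals relative to the 75th percentile of the array, and a log2 fold change is siDLEU1-2 over siCtrl within a line. Of the members, 48 were well above background on all 6 arrays, 27 on 1 to 5 arrays and 63 on no array, and 1 had no usable spot on some array. The kept members comprise 23 8-mers, 32 7-mers and 2 with the following base outside the probe (SRPRB and COPS8). They carry 57 different gene names, and 43 of them belong to protein-coding genes of the RefSeq gene table.

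After siDLEU1-2, the kept members were lower by a median log2 fold change of -0.58, and 37 of 57 (64.9%) were lower in all 3 lines, against 26.7% of all kept probes, while 6 (10.5%) were higher in all 3 lines, against 26.9%. Over 2-fold lower in all 3 lines were 12 members (21.1%), against 2.08% of all kept probes, and over 2-fold higher in all 3 lines was 1 member, AZGP1, against 2.08%. limma, blocked on cell line and adjusted over all kept probes, called 19 members lower (33.3%), against 4.52% of all kept probes. It called 4 members higher (7.02%), against 3.98% of all kept probes. One of these, AZGP1, passed the filter through its siDLEU1-2 arrays alone. Leaving out of both counts the probes above background on none of the siCtrl arrays, it called 3 of 56 members higher (5.36%), UQCC6, AVPI1 and ANXA2P1, against 3.87% of kept probes. The 3 siDLEU1-2 arrays lay below all 3 siCtrl arrays for 17 members (29.8%), against 5.36% of all kept probes, and above them for 3, against 5.67%. With probes well above background on all 6 arrays, 10 of 48 members (20.8%) were over 2-fold lower in all 3 lines, against 1.6%. limma called 0 members when HSC-3 or KON was left out, when the cell line was not a block and when dim probes were not filtered, where 28, 28, 16 and 34 members, in this order, were lower at an unadjusted p under 0.05 (against 11.5%, 11.9%, 3.36% and 6.3% of all probes fitted), while without Ca9-22 it called 7 members lower and 1 higher, against 0.586% and 0.636% of all kept probes.

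The lower values were seen in each line. The difference between the median of the members and that of the other probes was -0.47, -0.67 and -0.69 for HSC-3, KON and Ca9-22, with a mean of -0.61 ± 0.12 (n = 3 lines, SD). In HSC-3 19 members were over 2-fold lower (against 6.68% of kept probes), in KON 19 (against 7.29%) and in Ca9-22 22 (against 6.46%). Over 2-fold higher were 3 members in HSC-3 (against 7.53%), 3 in KON (against 7.3%) and 5 in Ca9-22 (against 6.56%). The middle 50% of the members had mean log2 fold changes from -1.23 to -0.08, and the middle 50% of the other probes from -0.29 to 0.29.

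Among dim probes the medians did not differ. The 80 members that had usable spots but were not kept had a median log2 fold change of 0.15, and the median of the other probes not kept was also 0.15. Lower in all 3 lines were 9 of these members (11.2%), against 5.28% of the other probes not kept, and higher were 17 (21.2%), against 19.1%. With no filter, over 137 members, the difference of the medians averaged -0.07 ± 0.09 over the lines. With the fold changes of each probe first averaged over the lines, this difference was -0.25. Of the kept members, 9 were not well above background on some array, and AZGP1 passed the filter through its siDLEU1-2 arrays alone.

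Among the 12 members over 2-fold lower in all 3 lines, 4 belong to genes of chromatin, adhesion or signaling. The probe of NSD2, a histone methyltransferase that the files list as WHSC1, had siCtrl levels of -0.06, 0.60 and 1.46 for HSC-3, KON and Ca9-22 and siDLEU1-2 levels of -2.54, -1.77 and -1.97. No array of one group reached the other, and the mean log2 fold change was -2.76 ± 0.58 (n = 3 lines, SD; limma adjusted p = 0.0247). The NSD2 site as written above, with a 7-mer, lies at chr4:1944108-1944128 on the plus strand of hg19.

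The probe of ITGB4, the integrin beta 4 subunit that binds laminin at hemidesmosomes, had levels of 7.34, 5.53 and 6.39 after siCtrl in HSC-3, KON and Ca9-22 and of 4.90, 2.14 and 4.04 after siDLEU1-2. All siDLEU1-2 levels were below all siCtrl levels, by 5.46-fold, 10.4-fold and 5.10-fold in the same order (mean log2 fold change -2.73 ± 0.57, n = 3 lines; limma adjusted p = 0.0247). The ITGB4 site as written above, with an 8-mer, lies at chr17:73753858-73753878 on the plus strand, in a probe that also holds a polyadenylation signal (AATAAA or ATTAAA).

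SMYD2, a lysine methyltransferase, is the only one with a member probe among 11 genes taken from the study's text and supplementary tables, a list that is not independent of these arrays. Its probe had levels of 4.06, 3.64 and 2.52 after siCtrl and of 1.74, 1.21 and 0.29 after siDLEU1-2, in the same order of lines. The groups did not overlap and the lines differed little, with falls of 4.99-fold, 5.38-fold and 4.68-fold (mean log2 fold change -2.32 ± 0.10, n = 3 lines; limma adjusted p = 0.0227). Apart from the arrays, the study reports lower SMYD2 by qRT-PCR in HSC-3 cells after siRNAs against DLEU1, with a similar western blot result. The SMYD2 site as written above, with an 8-mer, is at chr1:214510246-214510259 on the plus strand. Its heptamer starts at base 1459 of the transcript NM_020197 by the probe position given in the files, and SMYD2 has no second probe on the array to set beside it. The probes of the remaining 10 genes held no heptamer, and 1 of them, of the methyltransferase gene SETD6, held a weaker seed site (the hexamer CACTTA followed by A). That SETD6 probe had a log2 fold change of -1.32 ± 0.10 (n = 3 lines, SD; limma adjusted p = 0.0247), and the other SETD6 probe, with no seed site, -0.59 ± 0.18 (limma adjusted p = 0.0778).

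CCDC88A encodes girdin, an actin-binding protein. Its probe, with a 7-mer, had levels of -0.25, 0.70 and 0.66 after siCtrl and of -2.39, -1.31 and -0.75 after siDLEU1-2 in HSC-3, KON and Ca9-22. The groups did not overlap, and the mean log2 fold change was -1.85 ± 0.39 (n = 3 lines, SD; limma adjusted p = 0.0247).

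A further pair of these probes report genes of the RAB small GTPase cycle. RAB8A, which directs vesicles to the plasma membrane, had levels of 3.87, 3.95 and 4.64 after siCtrl and of 2.48, 2.29 and 3.07 after siDLEU1-2, with no overlap of the groups (mean log2 fold change -1.54 ± 0.14, n = 3 lines, SD). RABGAP1, a GTPase-activating protein for RAB proteins, fell by 1.5 ± 0.25 on the log2 scale (n = 3 lines, SD). Both had 8-mers, and limma called each (adjusted p = 0.0247 for both).

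Mitochondrial enzymes made up a further pair. HADHB, the beta subunit of the trifunctional protein of fatty acid oxidation, had levels of 5.44, 4.83 and 5.32 after siCtrl and of 3.57, 2.81 and 3.49 after siDLEU1-2, with no overlap (mean log2 fold change -1.91 ± 0.10, n = 3 lines; limma adjusted p = 0.0227). ACAD9, needed for the assembly of respiratory complex I, had levels of 4.46, 3.97 and 4.27 after siCtrl and of 3.30, 2.45 and 3.03 after siDLEU1-2, again with no overlap (mean log2 fold change -1.30 ± 0.19, n = 3 lines; limma adjusted p = 0.0257). Both probes hold an 8-mer.

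Others are SPRYD3 (-1.89 ± 0.51, n = 3 lines, SD), USB1, an RNA exonuclease that trims U6 small nuclear RNA (-1.46 ± 0.40), and the transcript ENST00000538113 on chromosome 12 (-2.0 ± 0.53), all with 7-mers and all called by limma (adjusted p = 0.0274, 0.0307 and 0.0266). The arrays of ENST00000538113 overlapped between the groups, and its siDLEU1-2 level in Ca9-22 (-5.30) was below the range of probes above background. With that level raised to the lowest one measured well above background, the log2 fold change in Ca9-22 was -0.44, and the probe no longer passed 2-fold in all 3 lines. With normexp background correction, 9 of the 12 members still passed 2-fold in all 3 lines, and USB1 and ENST00000538113 were not among them.

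A further 7 members were called lower by limma without passing 2-fold in all 3 lines. They include the 7-mer or undetermined members LOC645676 (-1.23), SRPRB, of the signal recognition particle receptor (-1.10), CDC45, of the replicative helicase (-1.06), CD58 (-0.84), SIKE1 (-0.78) and IRF5, an interferon regulatory factor (-0.73), as mean log2 fold changes over 3 lines. The groups of arrays overlapped for IRF5 and SRPRB and did not for the other 5.

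The 8-mer members were lower than the 7-mer members in each line. The median log2 fold change of the 23 8-mers was -0.67, -0.83 and -0.80 for HSC-3, KON and Ca9-22, and that of the 32 7-mers was -0.46, -0.48 and -0.62. Set against the other probes, this is -0.77 ± 0.09 for 8-mers and -0.52 ± 0.08 for 7-mers (n = 3 lines, SD), and with 3 lines no exact two-sided sign-flip test can give a p under 0.25, so none was made. Over 2-fold lower in all 3 lines were 7 of 23 8-mers (30.4%) and 5 of 32 7-mers (15.6%). limma called 8 of the 8-mers (34.8%) and 10 of the 7-mers (31.2%) lower, so the split was less clear by that count. Among probes well above background on all 6 arrays, the 17 8-mers lay -1.05 ± 0.33 and the 29 7-mers -0.51 ± 0.04 from the other probes. Within the 7-mers, the base after the heptamer gave no order that held in all 3 lines. The medians for HSC-3, KON and Ca9-22 were -0.47, -0.25 and -0.69 with C (14 probes), -0.56, -0.41 and -0.62 with G (8 probes) and -0.43, -0.66 and -0.66 with T (10 probes).

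Not all 8-mers were called by limma. ARNT2, a transcription factor, had -1.49, -0.79 and -4.44 in HSC-3, KON and Ca9-22 and was not called, with its siDLEU1-2 level in Ca9-22 below the range above background. The noncoding RNA LINC03027 had -1.54, VSIG10L -1.11, the kynurenine aminotransferase gene KYAT3 -1.07 and SKIDA1 -0.42 as mean log2 fold changes. These 5 probes were lower in all 3 lines without being called, although LINC03027 had only -0.04 in HSC-3, beside -1.92 in KON and -2.64 in Ca9-22. Means between -0.30 and 0.20 were measured for GANAB, TRIM24, PTGER4, PPME1, AK090649, XLOC_012192 and AK130224, some of which differed in sign between lines, and ARID5B, a chromatin regulator, had 0.52 (not called). The annexin A2 pseudogene ANXA2P1 was called higher (0.98 ± 0.10, n = 3 lines; limma adjusted p = 0.0307), although a probe of this pseudogene may also bind the near-identical parent transcript. The probe of CCT3, a chaperonin subunit, had -2.0, -2.18 and 2.99 in HSC-3, KON and Ca9-22.

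For contrast with the sites in probes that limma called lower, 4 8-mer sites are given whose probes limma did not call and whose mean log2 fold changes were between -0.30 and -0.11, with the heptamer in capitals.
GANAB: cctttgagggGCACTTAa
TRIM24: tgctattaagaagGCACTTAa
PTGER4: gtgcagaattgggGCACTTAa
PPME1: tacagctatggatGCACTTAa

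The GANAB probe had levels of 4.58, 5.04 and 5.08 after siCtrl and of 4.44, 4.68 and 4.67 after siDLEU1-2 (mean log2 fold change -0.30 ± 0.14, n = 3 lines; limma adjusted p = 0.236). PTGER4, the prostaglandin E receptor EP4, had levels of 0.12, 2.51 and 0.28 after siCtrl and of -0.36, 2.50 and -0.02 after siDLEU1-2. Both were lower within each line, by differences smaller than those of the called members, and the arrays of the groups overlapped, with levels that differ between lines. These sites hold the same GCACTTAA as ITGB4, SMYD2 and HADHB, so the same octamer was found in probes that limma called lower and in probes that it did not call.

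Members that rose were few. AZGP1, a secreted glycoprotein, was above background on none of the siCtrl arrays, and its siDLEU1-2 levels were -0.71, -2.61 and -1.78 for HSC-3, KON and Ca9-22, which is at least 3.75-fold higher as a mean over the lines. With dim siCtrl values raised to the lowest level measured well above background, the log2 difference was 2.87 in HSC-3 and 1.24 in KON. Since it passed the filter through the siDLEU1-2 arrays alone, it had to be higher, so its limma call and its 2-fold change counted above are not read as a test. UQCC6, an assembly factor of respiratory complex III listed in the files as C12orf73, had levels of 0.21, -0.05 and -0.33 after siCtrl and of 1.08, 1.05 and 1.06 after siDLEU1-2, with no overlap (mean log2 fold change 1.12 ± 0.26, n = 3 lines; limma adjusted p = 0.0321). AVPI1 was also called higher (1.07 ± 0.25, n = 3 lines; limma adjusted p = 0.0333), and HIVEP3, a zinc finger transcription factor, had 1.10 ± 0.61 and was not called.

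Weaker and shifted seed matches were compared in the kept probes without the heptamer. The 66 probes with the hexamer opposite positions 2 to 7 followed by A had a median log2 fold change of -0.04, the 123 with this hexamer followed by another base -0.10, and the 257 with the hexamer opposite positions 3 to 8 -0.01, beside 0.0086 in the 19452 probes with no such hexamer. Of these site classes, the first had 5 probes of 66 (7.58%) over 2-fold lower in all 3 lines, the second 8 of 123 (6.50%) and the third 5 of 257 (1.95%), against 1.98% of the probes with no such hexamer. limma called 7.58%, 12.2% and 5.06% of these classes lower, against 4.36%. The first and second classes thus held larger shares of lowered probes than probes with no hexamer, with medians near 0, and the median of the members was -0.58.

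Heptamers that are not the seed match of the antisense strand of siDLEU1-2 gave medians near 0. The same heptamer read on the opposite strand (TAAGTGC, 56 kept probes) had a median of 0.17 and 0 probes over 2-fold lower in all 3 lines. AACCCCT, opposite the seed of the sense strand, had a median of -0.01, with 4 of 66 probes (6.06%) over 2-fold lower in all 3 lines, and TTATAGC, opposite the seed of siDLEU1-1, had 0.01, with 3 of 45 (6.67%). limma called 5 of these 66 (7.58%) and 4 of these 45 (8.89%) lower. Both shares lay above those of all kept probes (2.08% and 4.52%), while the medians did not lie apart from them. The heptamers that pair with the related microRNA seeds had -0.0007 for GCACTTT (miR-17 family, 127 probes), -0.06 for AGCACTT (miR-302 and miR-372 group, 90 probes) and -0.04 for TGCACTT (miR-519 group), with 2.36%, 1.11% and 2.80% of the probes over 2-fold lower in all 3 lines.

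A member with A before the heptamer also holds AGCACTTA, the 8-mer of the miR-302 and miR-372 seeds. For HSC-3, KON and Ca9-22 the medians of the 23 kept members of this kind were -0.44, -0.51 and -0.78, and those of the 32 with another base there -0.49, -0.72 and -0.66, so the order was not the same in all lines. Of these probes, 4 and 8 were over 2-fold lower in all 3 lines.

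The place of the heptamer in the 60 bases of the probe was compared next, with the possible start positions split into 3 equal ranges. With the heptamer in the range at the 3′ side of the probe the medians for HSC-3, KON and Ca9-22 were -0.57, -1.29 and -1.12 (23 probes, 8 of them over 2-fold lower in all 3 lines). They were -0.33, -0.51 and -0.33 in the middle range (17 probes, 2 of them) and -0.46, -0.65 and -0.41 at the 5′ side (17 probes, 2 of them). The 3′ side was the lowest in each line. Among 8-mers the medians were -0.81, -1.48 and -1.45 at the 3′ side (10 probes), -0.37, -0.56 and -0.33 in the middle (5 probes) and -0.75, -0.74 and 0.0016 at the 5′ side (8 probes). Across the 57 kept members, the start of the heptamer and the mean log2 fold change had a Pearson r of -0.25 and a Spearman rho of -0.31, which describes probes that share 6 arrays. SMYD2 is an exception, with the heptamer starting at base 7 of the probe.

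Whether a site lies in coding sequence or in a UTR was not determined here, and sequence features common near the 3′ end of transcripts were used instead. A polyadenylation signal lay in 7 kept member probes, with a median of -1.46, against -0.47 in the 50 without one, while the 2218 other probes with such a signal had 0.03. Of these 7 members, 5 were lower and 2 higher in all 3 lines, against 26.7% and 26.9% of all kept probes. Probes with a stop codon in all 3 forward frames cannot lie wholly within an open reading frame. Among these, the 7 8-mers (SMYD2, ARNT2, HADHB, RAB8A, ACAD9, SKIDA1 and GANAB) had a median of -1.54 and all were lower in all 3 lines, while 1 of the 7 7-mers was lower in all 3 lines, and their medians differed between lines (-0.15, 0.83 and -0.04 for HSC-3, KON and Ca9-22). The 3407 other probes with stop codons in all frames had a median of 0.02, and 27.1% of them were lower in all 3 lines. Members of protein-coding genes had a median of -0.73 (43 probes) and members of other or unnamed transcripts -0.06 (14 probes), beside 0.0044 in the other probes of protein-coding genes. Where the array holds several probes of the gene, the 13 members that lay furthest downstream had -0.64 and the 14 others -0.51.

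Sites with more pairs beyond the seed were not lower. The median was -0.98 for sites with 0 to 2 pairs at positions 9 to 21 (11 probes), -0.51 for 3 or 4 pairs (21 probes) and -0.43 for 5 or more (11 probes). GC content, with a median of 43.3% in both the kept members and the other kept probes, had a Pearson r of 0.05 and a Spearman rho of -0.05 with the log2 fold change over the 57 members, and the level r of -0.10 and rho of -0.12. Among probes of low GC content (15% to 40%) the members had -0.60 and the other probes 0.02, and among those of middle GC content (41.7% to 45%) -0.57 and 0.0026.

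For 22 kept members the array also holds other probes of the same gene that lack the heptamer and passed the filter, 32 in all, and 0 of these carries a weaker seed site. These pairs set the signal of the member probe beside that of other probes of the same gene. The heptamer was sought only within probe sequences, so the transcript of any probe without it, also outside these pairs, may hold it elsewhere. A partner on a shared transcript reports the transcript that holds the member's site. The 22 members had a median log2 fold change of -0.61 and their partners -0.57, averaged per gene, and the median of the differences was -0.09, with the member lower in 13 of 22. In the 16 members with a partner annotated to the same transcript (20 partner probes), the medians were -0.71 and -0.74. In the 9 members with a partner annotated to other transcripts of the gene (12 partner probes), they were -0.43 and -0.07. With fold changes averaged over the lines, the median of the paired differences was -0.09 for shared transcripts, with the member lower in 10 of 16. For other transcripts it was -0.10, with the member lower in 6 of 9. By line, the medians for HSC-3, KON and Ca9-22 were -0.06, -0.11 and -0.13 for shared transcripts. They were -0.55, -0.22 and -0.02 for other transcripts. limma called 6 of the 20 partners on shared transcripts lower (30%) and 1 higher, against 4.52% of all kept probes called lower. It called 0 of the 12 on other transcripts, of which 2 were lower and 0 higher at an unadjusted p under 0.05, against 14.9% of all kept probes lower at that level.

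Partners on a shared transcript followed their members closely in several genes. The other HADHB probe, 9988 bases upstream on the genome, had log2 fold changes of -1.92, -1.88 and -1.75 for HSC-3, KON and Ca9-22, where the member had -1.87, -2.03 and -1.83. The other ACAD9 probe had a mean of -1.02 ± 0.25 (n = 3 lines, SD), and that of RABGAP1 -0.96 ± 0.06, each less than its member, and limma called both lower (adjusted p = 0.0359 and 0.0307). CD58, a cell adhesion ligand, had -0.84 ± 0.03 with the 7-mer and -0.92 ± 0.06 without it (n = 3 lines, SD). AVPI1 rose on both probes, by 1.07 and 1.03. The translation factor EEF1A1 had means of 0.04 on its member, 0.02 to 0.04 on 4 partners of the same transcript and 0.05 on 1 of another, and other copies of this gene in the genome may add to all of these probes. PPME1, a methylesterase of protein phosphatase 2A, changed in opposite directions between lines on both probes, with -0.72, -0.65 and 1.04 on the member and -0.72, -0.71 and 0.99 on the partner.

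Partners on other transcripts had values near those of their members in some genes and not in others. The NSD2 member lies on the transcript NM_007331, and a partner 687 bases upstream on this transcript had -1.32 ± 0.51 (n = 3 lines, SD; limma adjusted p = 0.0440), while 2 partners annotated to the transcript NM_133330, 39477 and 36430 bases downstream, had -0.12 and 0.10. The USB1 member on NM_001204911 had -1.46 and the partner on NM_024598, 8011 bases downstream, had 0.16 ± 0.21 (n = 3 lines, SD). HIVEP3 was the widest pair, with 1.10 on the member and -1.96 on a partner annotated to a noncoding transcript 340529 bases upstream. The glucocorticoid receptor gene NR3C1 is an exception in that its member (-0.43) and its partners on the same transcript (-0.36) and on another (-0.34) had like values, and so did the transcript XLOC_l2_004371 (-0.98 on both probes). Partner values for the remaining genes ranged from -1.13 to 0.02.

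Genes of the RNA silencing machinery, through which an siRNA acts, were measured by 33 kept probes for 25 genes, 0 of them members. limma called 4 probes lower (12.1%, against 4.52% of all kept probes) and 3 higher (9.09%, against 3.98%), and the median was 0.03, beside 0.0073 over all kept probes. DICER1, which cuts microRNA precursors, was lower at -1.5 ± 0.40 (n = 3 lines, SD; limma adjusted p = 0.0303), as were 1 of 2 probes of Argonaute 1 (EIF2C1, -1.30 ± 0.53, limma adjusted p = 0.0469) and both probes of the helicase gene DDX6 (-0.88 and -0.98). The decapping enzyme DCP2 was higher at 2.76 ± 0.30 (adjusted p = 0.0227), as were Argonaute 4 (EIF2C4, 0.86) and 1 of 2 probes of CNOT7 (0.97). Argonaute 2 (EIF2C2) had 0.04 ± 0.20 and was not called.

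Textbook targets of the microRNAs that share the hexamer were measured by 20 kept probes for 12 genes, 0 of them members. limma called 3 lower (15%, against 4.52% of all kept probes) and 0 higher, with a median of -0.02. The list is not independent of these arrays, since the study names CD44 from them. The 3 were 1 of 2 probes of CD44 (-3.15), 1 of 2 of MAPK9 (-1.39), and RBL2 (-1.05), a retinoblastoma-related gene whose probe holds the hexamer opposite positions 3 to 8. The kept probe of E2F1 holds the same hexamer and was not called (-0.31, limma adjusted p = 0.268). The second probe of CD44 (1.04) and that of MAPK9 (0.70) were higher in all 3 lines and not called, so the probes of these genes had opposite signs.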

How the data were processed

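The authors deposited the output of Agilent Feature Extraction (10.7.3.1 per the file headers), in which each spot has a fluorescence intensity after background subtraction and detrending, not normalized between arrays. The deposited series table holds the same intensity, rounded. The study's methods name GeneSpring GX but neither normalization nor a filter.

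The log2 processed signal minus the 75th percentile of each array was used here. Spots flagged as outliers were dropped, and replicate spots averaged. limma 3.58.1 in R 4.3.3 was fitted to the 19956 kept probes, blocked on cell line, with Benjamini-Hochberg adjustment over all of them. Its p-values measure the spread between 3 lines with 1 array per siRNA. Deviations from the siRNA means correlated within each line (0.828, 0.813 and 0.822). Tested on simulated data with 200 of 19956 probes changed by -1.5 on the log2 scale, limma recovered 179 (89.5%), beside 18 false calls. The number of arrays limits the precision.

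Strand sequences came from the study's supplement, probe sequences and hg19 coordinates from the array files, and gene names and microRNAs from RefSeq (GRCh38.p14), where 77 of the 138 members matched a gene. No genome or protein table was used, so a planned comparison with coding sequence was not run. The genes named are all members over 2-fold the same way in all 3 lines, the 10 lowest and 5 highest, 8-mers, members whose gene has another kept probe, and those of 11 genes from the study's text and supplementary tables whose probes hold a seed match. Others were chosen after their values were seen. Some members that meet this rule are counted but not reported by name here. The members and lists were chosen with earlier results of these data known. Alternatives were other scalings, background corrections, filters and fold thresholds, the series table, each line left out, no block, 1 probe per gene, and heptamers away from the probe ends.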

Additional observations from a re-analysis of the deposited data

Results flagged for a closer look

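The member probe of CCT3 moved in opposite directions between the lines, with log2 fold changes of -2.0, -2.18 and 2.99 for HSC-3, KON and Ca9-22, a difference that was not tested because each line has 1 array per siRNA. In Ca9-22 its siCtrl level of -5.78 lay under the lowest level measured well above background on that array (-3.44), and with dim values raised to that level the log2 fold change there was 0.65. The other CCT3 probe, on another transcript, had -0.23, -0.03 and 0.06. Changes over 2-fold in both directions between lines were seen in 145 of 19956 kept probes (0.727%) and in 1 of 57 kept members. Groups of 3 arrays are too small for a check of single outlying arrays.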

How the results depend on the processing

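The count of members over 2-fold lower in every line was 9 to 13 in the alternatives that kept all lines and the 2-fold threshold (against 0.907% of all probes with normexp, which gave 9, and 0.979% to 2.41% in the others), 5 with a 3-fold threshold, and 14 to 16 with 1 line left out (against 3.04% to 3.21%). All 12 members remained under quantile normalization, both other centerings, the series table, no filter and each line left out, and 11 did with dim values raised to the floor, without ENST00000538113. Over 2-fold higher were 0 members with normexp or when only probes above background on all 6 arrays were kept, and 1 to 2 with 1 line left out.

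limma called 19 to 21 members lower under the other scalings, background corrections and the stricter filter, fitted anew (against 4.5% to 5.94% of all probes). It called 0 lower and 0 higher with no filter (34 lower and 10 higher at an unadjusted p under 0.05, with 6.3% of all probes lower), 0 to 7 lower and 0 to 1 higher with 1 line left out (0 without HSC-3 or KON, where 28 were lower at an unadjusted p in each, with 11.5% and 11.9% of all probes lower), and 0 and 0 with no replicate block (16 lower and 3 higher at an unadjusted p, against 3.36% of all probes lower). In the fits with no filter, with no replicate block, without HSC-3 and without KON, 0 of all probes were called.

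The difference between members and other probes moved to -0.46 with normexp and -0.074 with no filter, that of 8-mers to -0.62 and -0.29 and to -1.05 with probes above background on all 6 arrays, and that of 7-mers to -0.36, to -0.0064 with no filter and to -0.38 with 1 probe per gene. These values are means over the lines of each line's difference of medians. With fold changes first averaged over the lines, the differences with no filter were -0.25 for members, -0.33 for 8-mers and -0.18 for 7-mers. The difference from partner probes of the same gene, here the mean over lines of each line's median, moved from -0.11 to -0.13 with quantile normalization and -0.032 with no filter. The cause of these shifts was not tested.

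Of the 43 named members 7 changed sign under some alternative, and 0 of the 20 that limma called. These were EEF1A1 (-0.069 with quantile normalization, -0.031 with median centering), XLOC_012192 (-0.045, -0.071 and -0.025 with the 3 other scalings), ZNF2 (0.048 with normexp), and, with 1 line left out, CCT3 (0.40 to 0.49), PPME1 (0.16 to 0.19), ZNF2 (0.21), AK090649 (0.0099 to 0.017), XLOC_012192 (-0.11) and AK130224 (-0.034). With median centering the median of all kept probes in KON was -0.10, against 0.02. Members above background on no array (63) have no usable change at this signal.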
